A study of Mus musculus with 30 samples.

Results

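A set of 10 transcription factors of the mouse pluripotency network, POU5F1 (OCT4), NANOG, SOX2, ESRRB, TFCP2L1, NR5A2, SALL4, PRDM14, TBX3 and UTF1, was followed at the level of their transcripts in 8-cell mouse embryos. The genes were chosen by symbol, which gave 10 of the 49492 symbols in the deposited table, and each stood on a single row. Embryos had been treated with siRNA 1 against Yy1, the gene of the zinc finger protein YY1, or with a control siRNA, and each group held 2 libraries. All 4 libraries came from BDF1 x BDF1 embryos at the 8-cell stage, grown in the embryo medium KSOM, so the groups share strain, stage and culture and differ by the siRNA. The labels do not give the number of embryos behind a library or say whether replicates were separate collections. The p-values thus reflect differences among these 4 libraries, whose spread may be technical. Only 1 siRNA against Yy1 has RNA libraries here, and an effect of that siRNA on other genes cannot be told apart from the loss of Yy1. The series comprises 30 samples, and the other 26 (MNase-seq and CUT&RUN) were not analysed here. The series title is about nucleosome remodeling through YY1, and the comparison asks how these transcripts stood when Yy1 was knocked down.

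OCT4 and SOX2 bind DNA side by side on a composite element made of an octamer and a SOX site, and the homeodomain protein NANOG acts with them to keep embryonic stem cells and the inner cell mass of the blastocyst pluripotent. ESRRB, TFCP2L1, TBX3, NR5A2, SALL4 and PRDM14 support the naive form of this state, and several of them, including ESRRB and NR5A2, bind regulatory DNA of Pou5f1 or Nanog in embryonic stem cells. In the mouse embryo OCT4 is present through cleavage, whereas SOX2 becomes a marker of the inner cells only after the 8-cell stage.

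The sequence upstream of the start of Pou5f1, Nanog and Sox2 is shown because these genes encode the core of the network and because each stretch holds letters that other factors of the set recognise. The 250 bases before the start come from RefSeq promoters (GRCm38.p6, the assembly behind mm10), written 5′ to 3′ on the gene's strand. Capitals mark the octamer ATGCAAA, the SOX core CATTGT or the core TCAAGG of NR5A2 and ESRRB sites, on either strand. Pou5f1 lies at chr17:35505782-35506031, Nanog at chr6:122707239-122707488 and Sox2 at chr3:34649745-34649994, all on the plus strand.

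Pou5f1: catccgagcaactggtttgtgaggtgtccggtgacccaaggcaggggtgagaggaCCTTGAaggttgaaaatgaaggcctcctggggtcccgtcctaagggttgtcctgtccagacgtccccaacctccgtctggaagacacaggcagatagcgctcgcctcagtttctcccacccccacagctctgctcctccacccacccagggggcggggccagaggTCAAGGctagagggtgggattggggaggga

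Nanog: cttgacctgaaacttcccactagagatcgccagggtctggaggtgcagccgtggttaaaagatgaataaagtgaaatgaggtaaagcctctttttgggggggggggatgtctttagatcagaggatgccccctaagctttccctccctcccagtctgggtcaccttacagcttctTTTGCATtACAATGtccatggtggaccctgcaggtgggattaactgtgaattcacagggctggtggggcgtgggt

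Sox2: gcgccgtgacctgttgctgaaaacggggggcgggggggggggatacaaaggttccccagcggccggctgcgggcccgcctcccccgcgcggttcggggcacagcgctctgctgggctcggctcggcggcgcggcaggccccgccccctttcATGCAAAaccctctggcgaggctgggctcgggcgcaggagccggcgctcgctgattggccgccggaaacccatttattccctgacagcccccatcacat

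In the Nanog sequence the octamer begins 75 bases and the SOX core 67 bases before the start, both read on the minus strand and separated by a single base, which is the layout of the composite OCT4 and SOX2 element. The Sox2 sequence holds an octamer 99 bases before the start, and the Pou5f1 sequence a TCAAGG core 30 bases and another 195 bases before it. RefSeq promoters were matched for 7 of the 10 genes, in 11 windows of 300 bases (250 before the start and 50 after it). Sall4, Prdm14 and Tbx3 had no matched entry. The octamer stood in 3 of the 11 windows, against 4.63% of 32851 windows of all genes, the SOX core in 4 against 12.6%, and TCAAGG in 3 against 14.4%. Alternative starts of a gene share letters, and the 2 Nanog windows hold the same octamer and SOX core. A YY1 motif, written GCCATNTT and searched on both strands, was in 0 of the 11 windows and in 6.05% of all windows. These letters were chosen with the sequences in view, and a match is a description of letters, not of binding.

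The table gives FPKM, fragments scaled to gene length and library total, which allows levels to be compared between genes. Library totals recovered from the steps between low values were 29302489 to 34429515 fragments. Yy1 stood at 5.89 and 7.98 FPKM in Yy1 knockdown libraries and at 77.7 and 71.2 FPKM in control libraries, 10.7-fold lower by group mean (log2 fold change -3.26, limma adjusted p = 0.0556). All 10 markers of the cleavage embryo exceeded a mean of 1 FPKM, the filter used for testing, with 5 higher, 5 lower and a median log2 fold change of -0.02, and Dppa3, the gene of the maternal factor STELLA, stood at 1985 to 2128 FPKM.

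The pluripotency factors covered a wide range of levels and held nearly the same order in both groups. Pou5f1 was the most abundant, Nr5a2 came second, Tbx3 and Sall4 stood close together, and Esrrb, Tfcp2l1, Utf1 and Nanog followed. Prdm14 was near 1 FPKM and Sox2 was close to 0. Tbx3 and Sall4 stood in opposite order in the groups, and their libraries overlapped in each group, as did those of Utf1 and Nanog. Every other neighbour in the order was separated, its lowest library lying above the highest library of the next gene. Summed over the 10 genes, the level was 495 and 472 FPKM in Yy1 knockdown libraries and 550.0 and 528 FPKM in control libraries. Pou5f1 alone held 35.9% and 40.3% of that sum in Yy1 knockdown libraries and 35.5% and 40.5% in control libraries.

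**Figure D1:**
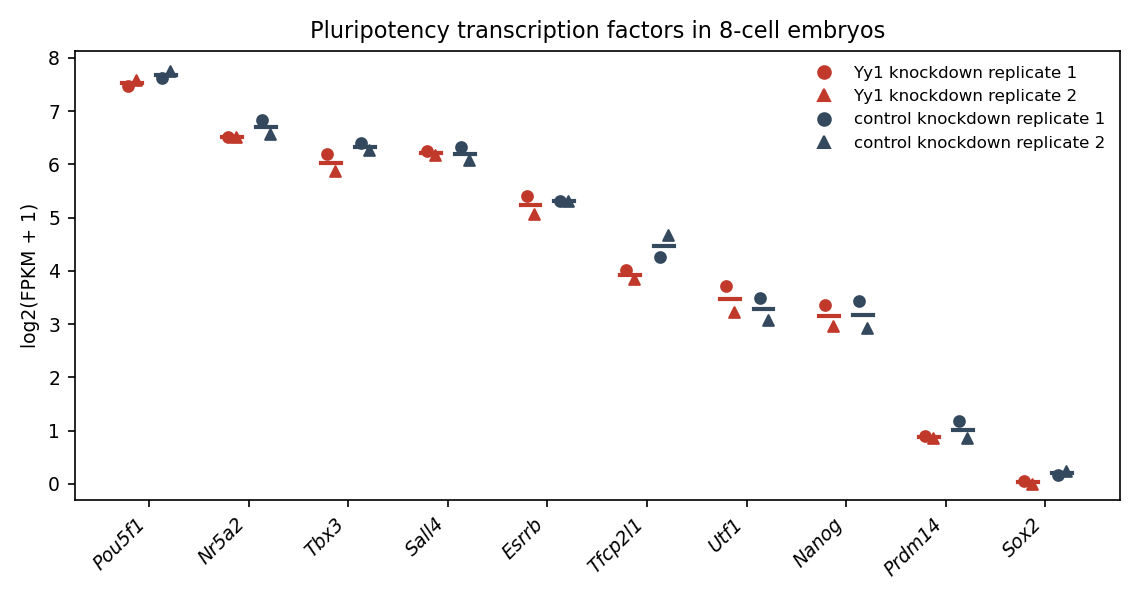
Level of each pluripotency factor as log2(FPKM + 1), with genes ordered by control mean; for each gene the Yy1 knockdown libraries are on the left in red and the control libraries on the right in blue-grey, circles are replicate 1, triangles replicate 2 and bars the mean of the 2 on this scale. Pou5f1 stood at the top with 178 to 214 FPKM over the 4 libraries, and Sox2 at the bottom with 0 to 0.186 FPKM.

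Pou5f1, on chromosome 17 from 35506032 to 35510777, stood at 178 and 190.0 FPKM in Yy1 knockdown libraries, against 195 and 214 FPKM in control libraries. Both knockdown libraries were below both controls, but the gap between the closest libraries of the groups was smaller than the gap between replicates of either. The mean was 184 ± 8.68 FPKM in Yy1 knockdown and 204 ± 13.3 FPKM in control libraries (SD, n = 2 each). This is a log2 fold change of -0.15 (standard error 0.13, limma adjusted p = 0.75), with a 95% interval of 0.719-fold to 1.13-fold, and -0.086 without control replicate 2. The values rest on 13610 and 12513 fragments in Yy1 knockdown libraries and on 15096 and 15102 in control libraries. In level, Pou5f1 exceeded 96.3% of 12120 tested genes in Yy1 knockdown and 96.8% in control libraries.

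Nanog, on chromosome 6 from 122707489 to 122714633, stood at 9.27 and 6.76 FPKM in Yy1 knockdown libraries and at 9.74 and 6.56 FPKM in control libraries. The control libraries enclosed the knockdown libraries, and replicate 1 was above replicate 2 in each. The mean was 8.01 ± 1.77 FPKM in Yy1 knockdown and 8.15 ± 2.25 FPKM in control libraries (SD, n = 2 each), a log2 fold change of -0.014 (standard error 0.26, limma adjusted p = 0.99). The interval reached from 0.636-fold to 1.54-fold, wider than that of Pou5f1. The recovered fragments were 354 and 222 in Yy1 knockdown and 376 and 231 in control libraries, the smallest whole counts the values allow. A pseudogene copy, Nanog-ps1, was listed at 0.704 and 0.683 FPKM in Yy1 knockdown and at 0 and 1.02 FPKM in control libraries, and how reads shared with such copies were counted is not stated in the labels.

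Sox2, on chromosome 3 from 34649995 to 34652461, was at the limit of detection, with 3 and 0 fragments in Yy1 knockdown libraries and 9 and 12 fragments in control libraries. In FPKM these are 0.0428 and 0 in Yy1 knockdown libraries, against 0.127 and 0.186 in control libraries. Both knockdown libraries lay below both controls. Set against the library totals, the pooled ratio of Yy1 knockdown to control was 0.148, with an exact 95% counting interval of 0.0283 to 0.497. That interval covers counting error only and not the spread between embryos or libraries. In the second Yy1 knockdown library a count of 0 has an exact 95% upper bound of 3.69 fragments, or 0.0612 FPKM. Sox2 did not pass the filter, and with no filter its limma adjusted p was 0.797 (unadjusted p = 0.0367). The noncoding Sox2ot, which overlaps Sox2, stood at 0 and 0.0412 FPKM in Yy1 knockdown and at 0.00752 and 0.00275 FPKM in control libraries.

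Among the nuclear receptors, Nr5a2, on chromosome 1 from 136842562 to 136960448, stood at 90.2 and 90.8 FPKM in Yy1 knockdown libraries and at 114 and 94.3 FPKM in control libraries. NR5A2 is an orphan receptor that binds DNA as a monomer. Both knockdown libraries were below both controls, with the second control library close to them. The mean was 90.5 ± 0.399 FPKM in Yy1 knockdown and 104 ± 13.8 FPKM in control libraries (SD, n = 2 each), and the log2 fold change was -0.19 (standard error 0.15, limma adjusted p = 0.723), or -0.058 without control replicate 1. The 95% interval ran from 0.679-fold to 1.13-fold. Esrrb, the gene of an estrogen-related receptor that recognises a similar DNA element, lies on chromosome 12 from 86361117 to 86521628. It stood at 41.1 and 32.5 FPKM in Yy1 knockdown libraries and at 38.6 and 38.6 FPKM in control libraries. The knockdown libraries lay on either side of the controls (log2 fold change -0.08, standard error 0.17, limma adjusted p = 0.914). The control replicates of Esrrb were closer to each other than those of any other factor, while its knockdown replicates differed 1.26-fold. The 95% interval was 0.713-fold to 1.26-fold.

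Tfcp2l1 encodes a CP2-family factor that acts downstream of LIF and STAT3 in embryonic stem cells, and lies on chromosome 1 from 118627923 to 118685168. It stood at 15.1 and 13.4 FPKM in Yy1 knockdown libraries and at 18.1 and 24.4 FPKM in control libraries. Both knockdown libraries were below both controls, and the gap between the 2 controls was wider than the gap between the lower control and the higher knockdown library. The mean was 14.3 ± 1.21 FPKM in Yy1 knockdown and 21.3 ± 4.47 FPKM in control libraries (SD, n = 2 each), which is 1.49-fold lower. Tfcp2l1 had the smallest unadjusted p of the 8 genes past the filter, 0.0395 by limma, with a log2 fold change of -0.53 (standard error 0.20, limma adjusted p = 0.548). Its difference was larger in size than that of 86.2% of all tested genes. In level it exceeded 69.1% of tested genes in Yy1 knockdown and 76.5% in control libraries, the widest shift in this share among the 8 factors tested. The adjusted p was 0.304 to 0.848 over the alternatives, and the log2 fold change was -0.32 without control replicate 2.

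Tbx3, the gene of a T-box factor that sustains naive pluripotency, lies on chromosome 5 from 119670534 to 119684724. It stood at 72.4 and 57.6 FPKM in Yy1 knockdown libraries and at 83.8 and 75.9 FPKM in control libraries. Both knockdown libraries were below both controls (log2 fold change -0.30, standard error 0.16, limma adjusted p = 0.641), and the higher knockdown library came close to the lower control. The mean was 64.96 ± 10.5 FPKM in Yy1 knockdown and 79.9 ± 5.56 FPKM in control libraries (SD, n = 2 each), with a 95% interval of 0.611-fold to 1.08-fold. Without Yy1 knockdown replicate 2 the log2 fold change of Tbx3 was -0.14, and without Yy1 knockdown replicate 1 it was -0.46. Sall4, a zinc finger gene that acts upstream of Pou5f1 and with the NuRD corepressor, lies on chromosome 2 from 168748332 to 168767201. It stood at 75.7 and 71.8 FPKM in Yy1 knockdown libraries and at 79.3 and 66.4 FPKM in control libraries. The control libraries enclosed the knockdown libraries, and the log2 fold change of 0.02 (standard error 0.15, limma adjusted p = 0.972) was -0.013 with quantile normalization. Its 95% interval ran from 0.786-fold to 1.31-fold.

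Utf1, which encodes a chromatin-associated factor and is a target of OCT4 and SOX2 in embryonic stem cells, lies on chromosome 7 from 139943856 to 139945112. It stood at 12.1 and 8.34 FPKM in Yy1 knockdown libraries and at 10.2 and 7.40 FPKM in control libraries, so that the groups overlapped (log2 fold change 0.19, standard error 0.25, limma adjusted p = 0.849). The 95% interval was 0.738-fold to 1.76-fold. Prdm14, whose product restrains FGF signalling and DNA methylation in naive cells, lies on chromosome 1 from 13113428 to 13127163. It stood at 0.858 and 0.825 FPKM in Yy1 knockdown libraries and at 1.27 and 0.807 FPKM in control libraries, from 62 to 112 fragments. The second control library was below both knockdown libraries, and the gene missed the filter. The pooled fragments were 137 in Yy1 knockdown and 177 in control libraries, a ratio to the totals of 0.804 with a counting interval of 0.639 to 1.01.

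Among the 12120 genes past the filter, limma called 0 (0%) at an adjusted p of 0.05, and so 0 of the 8 pluripotency factors tested. Yy1 itself, 10.7-fold lower by group mean, was not called (limma adjusted p = 0.0556), so the lack of a call does not show an unchanged level. At an unadjusted p under 0.05, limma counted 1079 genes, 8.9% of those tested, and 1 of the 8 factors, Tfcp2l1, which was on the lower side. Other settings called 13 genes (0.107%, limma-voom on recovered fragments), 4 (0.0599%, filter of 5 FPKM), 14 (0.17%, protein-coding rows) and 1 (0.00825%, robust eBayes), and 0 of the pluripotency factors in each. Of the 8 factors, 6 were lower and 2 higher by log2 fold change, with a median of -0.11, beside 0.02 over all tested genes. In 4 of the 8, Pou5f1, Nr5a2, Tfcp2l1 and Tbx3, both knockdown libraries were below both controls, as they were in 18.9% of all tested genes. In 0 of the 8 both were above both controls, against 21.8% of all tested genes, so that the groups were separate in either direction in 4 of 8 factors and in 40.7% of all tested genes. The 8 genes are few and were not drawn at random, so these shares are a description. In a sample of whole embryos, fewer cells that carry a transcript and less of it per cell cannot be told apart.

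**Figure D2:**
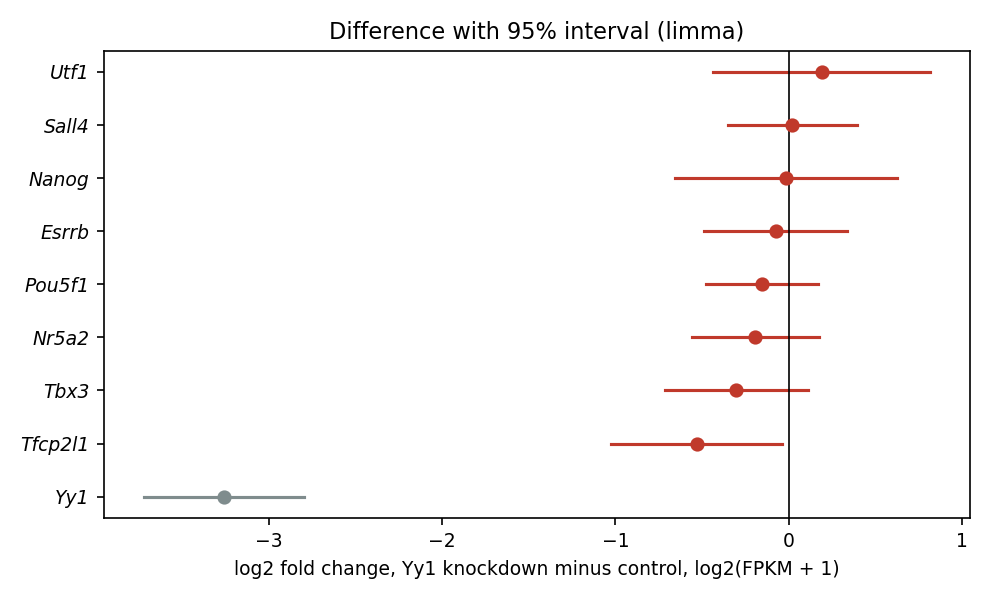
Difference in log2(FPKM + 1), Yy1 knockdown minus control, with its 95% limma interval, for the 8 pluripotency factors that passed the filter (red) and for Yy1 (grey). The interval of Tfcp2l1 runs from -1.02 to -0.04 before adjustment over all genes, the other 7 include 0, and Yy1 lies at -3.26.

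Replicates of a group set the precision of these values. Errors of counting alone are given here from the recovered fragments, and would be smaller where those are too low by a common factor. Nanog in replicate 1 was 1.37-fold its level in replicate 2 in Yy1 knockdown libraries and 1.48-fold in control libraries, with counting errors of 8.56% and 8.36%. Utf1 had ratios of 1.45 in Yy1 knockdown and 1.38 in control libraries, with counting errors of 7.29% and 7.63%. Tbx3 and Esrrb, with more fragments, differed 1.26-fold between the Yy1 knockdown replicates. Of the 9 factors with fragments in every library, 5 (Nanog, Utf1, Tbx3, Sall4 and Prdm14) were higher in replicate 1 in both groups, as were 27.3% of all tested genes, and Pou5f1 was lower in replicate 1 in both.

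The relatives of these factors showed which family members the 8-cell embryo carried. Of 71 genes from the POU, SOX, estrogen-related receptor, CP2 and grainyhead, NR5A, SALL, PRDM and T-box families, 21 passed the filter and 6 were listed at 0 in every library. The most abundant was Sox15, a SOX gene active in the early embryo, at 396 and 393 FPKM in Yy1 knockdown libraries and at 421 and 365 FPKM in control libraries. Sox15 thus exceeded Pou5f1 in every library, while Sox2 was nearly absent. Sox12, Sox13 and Sox21 stood between 7.96 and 19.5 FPKM. None of the 21 relatives was called by limma (lowest adjusted p 0.579), and 0 had an unadjusted p under 0.05.

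**Figure D3:**
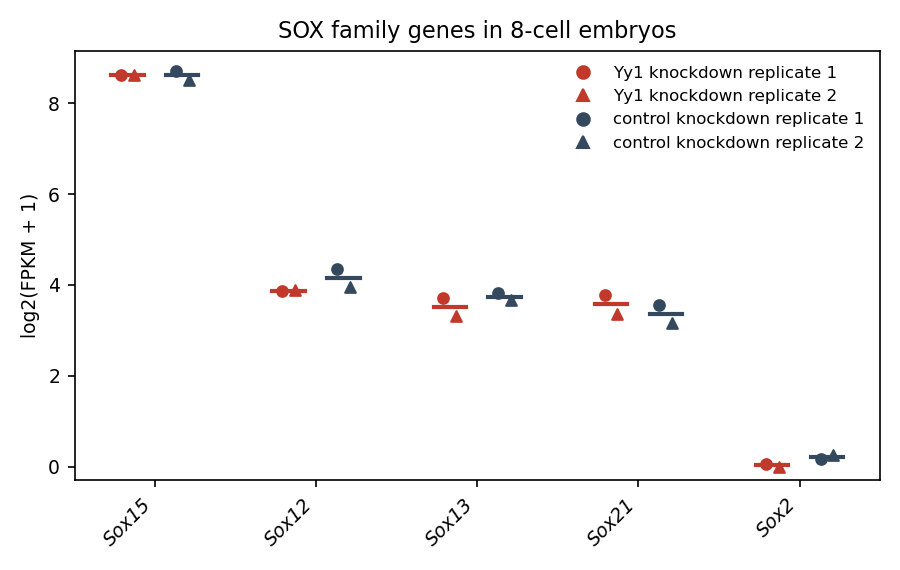
Levels of the SOX genes that passed the filter, and of Sox2, as log2(FPKM + 1), with Yy1 knockdown libraries on the left in red and control libraries on the right in blue-grey; circles are replicate 1, triangles replicate 2 and bars the mean of the 2. Sox15 stood at 365 to 421 FPKM in the 4 libraries and Sox2 at 0 to 0.186 FPKM.

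By the rule for naming, the relatives with the smallest p were Tfcp2, Prdm10, Sox12 and Pou6f1. Tfcp2, a CP2 gene like Tfcp2l1, stood at 14.4 and 11.3 FPKM in Yy1 knockdown libraries and at 20.3 and 16.05 FPKM in control libraries (log2 fold change -0.47, limma adjusted p = 0.579). Both knockdown libraries were below both controls in Tfcp2, as in Tfcp2l1, but the groups overlapped in Ubp1, another CP2 gene (log2 fold change -0.10, limma adjusted p = 0.878). Without overlap between groups, 6 of the 21 relatives were lower and 2 higher, against 18.9% lower and 21.8% higher over all tested genes. Prdm10, Sox12 and Pou6f1 had log2 fold changes of -0.28, -0.29 and -0.28. Nr5a1, the sister gene of Nr5a2, was listed at 0 in all 4 libraries.

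Of 25 partner factors of the network, 22 passed the filter, 11 higher and 11 lower, with a median log2 fold change of -0.02. At an unadjusted p under 0.05, limma counted 6 of them as lower and 0 as higher, against 4.69% lower and 4.22% higher over all tested genes, and none was called after adjustment. Without overlap between groups, 6 of the 22 were lower and 5 higher, against 18.9% lower and 21.8% higher over all tested genes. The 4 with the smallest p were Zfp42, Zfx, Nacc1 and Klf4, and the Yy1 knockdown libraries lay below the controls in each. Zfp42, the gene of REX1, a zinc finger protein related to YY1 and a marker of naive cells, stood at 5.43 and 3.99 FPKM in Yy1 knockdown libraries and at 30.7 and 30.2 FPKM in control libraries (log2 fold change -2.47, limma adjusted p = 0.0928). Zfx, a self-renewal factor on the X chromosome, stood at 3.7 and 3.74 FPKM in Yy1 knockdown and at 6.16 and 7.5 FPKM in control libraries (-0.72, limma adjusted p = 0.502). Nacc1, whose product binds NANOG, stood at 7.74 and 8.55 FPKM in Yy1 knockdown and at 11.7 and 15.5 FPKM in control libraries (-0.66, limma adjusted p = 0.518). Klf4, which binds with OCT4 and SOX2 in reprogramming, stood at 22.1 and 16.5 FPKM in Yy1 knockdown and at 26.4 and 31.4 FPKM in control libraries (-0.57, limma adjusted p = 0.532). The other 2 with an unadjusted p under 0.05 were Rest and Ncoa3.

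Of 20 genes studied as targets of OCT4, SOX2 or NANOG in embryonic stem cells, 13 passed the filter, 6 higher and 7 lower, with a median of -0.01. None was called by limma, and at an unadjusted p under 0.05 there were 1 higher and 2 lower. Tdh, the threonine dehydrogenase of mouse pluripotent cells, stood at 19.1 and 17.5 FPKM in Yy1 knockdown libraries and at 10.6 and 12.03 FPKM in control libraries (log2 fold change 0.65, limma adjusted p = 0.500). Gdf3, the gene of a TGF-beta family ligand, stood at 0.545 and 0.479 FPKM in Yy1 knockdown and at 1.55 and 1.47 FPKM in control libraries (-0.73, limma adjusted p = 0.548). Jarid2, a partner of Polycomb repressive complex, stood at 39.97 and 28.5 FPKM in Yy1 knockdown and at 49.1 and 47.5 FPKM in control libraries (-0.51, limma adjusted p = 0.556), and Dppa5a had a log2 fold change of -0.27.

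Signals that feed into the network were measured through 4 further lists, and limma called none of their genes. In the LIF and STAT3 list, 8 of 10 genes passed the filter, 4 higher and 4 lower, with a median of -0.04. Without overlap between groups, 3 of the 8 were higher and 3 lower, against 21.8% higher and 18.9% lower over all tested genes. Its gene with the smallest p was Socs3, a feedback inhibitor induced by STAT3, at 38.0 and 30.3 FPKM in Yy1 knockdown libraries and at 67.6 and 50.4 FPKM in control libraries (log2 fold change -0.77, limma adjusted p = 0.502). Also named by the rule were Il6ra, lower without overlap (log2 fold change -0.41), and Jak1 (0.32) and Pim1 (0.21), both higher without overlap. Stat3 itself stood at 1.6 and 1.49 FPKM in Yy1 knockdown and at 0.741 and 1.36 FPKM in control libraries, and the receptor genes Lifr and Il6st did not reach the filter. In the FGF and ERK list, 11 of 15 tested genes were lower (median -0.18), and Etv5, a transcription factor induced by ERK signalling, had the smallest p, at 8.94 and 6.7 FPKM in Yy1 knockdown and at 4.93 and 4.45 FPKM in control libraries (0.62, limma adjusted p = 0.532). In the WNT and GSK3 list 8 of 10 tested genes were lower (median -0.15), and in the BMP and SMAD list 4 of 5 (median -0.26), beside 46.8% of all tested genes. With no filter on low values the BMP and SMAD median was 0.14, and the FGF and ERK median was -0.066 without Yy1 knockdown replicate 2. None of the 15 genes tested in these last 2 lists had an unadjusted p under 0.05.

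Genes of other fates gave no call either. Of 16 genes of the primed state that follows implantation, 3 passed the filter, Dnmt3a, Dnmt3b and Grhl2, with log2 fold changes of -0.27, -0.04 and 0.02. Otx2 and Fgf5, markers of that state, reached at most 0.547 and 0.151 FPKM. Of 14 trophectoderm genes, 9 passed the filter, 7 higher and 2 lower, with a median of 0.39, which was -0.14 without Yy1 knockdown replicate 1, 0.83 without Yy1 knockdown replicate 2 and 0.13 without control replicate 2. Krt18 and Krt8, 2 of the 9, had an unadjusted p under 0.05 on the higher side, as did 4.22% of all tested genes. Without overlap between groups, 3 of the 9 (Krt18, Krt8 and Gata3) were higher and 1 (Tfap2c) lower, against 21.8% and 18.9% of all tested genes. Gata3 stood at 5.02 and 4.23 FPKM in Yy1 knockdown and at 3.48 and 3.08 FPKM in control libraries (log2 fold change 0.39, limma adjusted p = 0.632). Tfap2c, a trophectoderm regulator that is also among the cleavage embryo markers, stood at 41.4 and 35.01 FPKM in Yy1 knockdown libraries. In control libraries Tfap2c stood at 55.5 and 43.5 FPKM (log2 fold change -0.36, limma adjusted p = 0.623). Krt18, a keratin of the trophectoderm epithelium, stood at 20.8 and 28.6 FPKM in Yy1 knockdown libraries and at 4.52 and 11.7 FPKM in control libraries (1.60, limma adjusted p = 0.500). Of 13 primitive endoderm genes 4 passed the filter, with Gata6, a factor that opposes NANOG, at 65.5 and 50.7 FPKM in Yy1 knockdown and at 60.6 and 57.4 FPKM in control libraries. Gata6 transcripts thus stood above those of Nanog in every library.

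**Figure D4:**
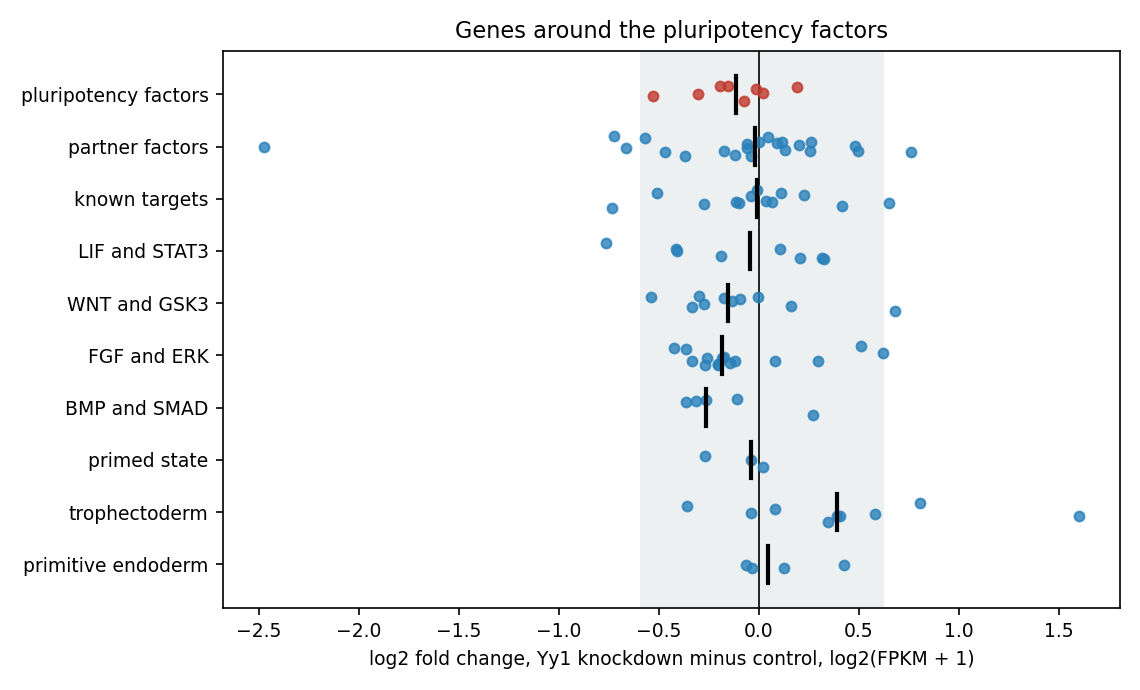
Log2 fold changes, Yy1 knockdown minus control on the log2(FPKM + 1) scale, of the tested genes in each list; each dot is a gene, vertical spread within a row is for legibility, black bars are list medians, and the shaded band spans the 5th to 95th percentile of all 12120 tested genes, -0.59 to 0.62. The 8 pluripotency factors (red) all lie within the band; Zfp42 at -2.47 and Krt18 at 1.60 lie outside it.

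Markers of earlier stages and of other cells were measured beside these results. Oocyte markers, 11 of 12 past the filter with 8 higher and 3 lower (median log2 fold change 0.27), summed to 124 and 112 FPKM in Yy1 knockdown libraries and to 96.9 and 98.5 FPKM in control libraries. Markers of the 2-cell stage, 9 of 10 past the filter with 8 higher and 1 lower (median 0.82), summed to 119 and 138 FPKM in Yy1 knockdown and to 103 and 94.7 FPKM in control libraries. Both sums were higher in the knockdown libraries without overlap, as were the cumulus and blood sums below. Gene by gene, 5 of the 11 oocyte and 2 of the 9 2-cell genes were higher without overlap and 0 lower. Over all tested genes 21.8% were higher and 18.9% lower without overlap. At an unadjusted p under 0.05, limma counted 0 of the 11 oocyte and 2 of the 9 2-cell genes as higher and 0 as lower. The 1 cumulus and the 1 blood gene past the filter were also counted as higher. Over all tested genes 4.22% were higher and 4.69% lower at that level, and no gene of these lists was called after adjustment. The part of these markers in the values of the pluripotency factors was not tested. Without Yy1 knockdown replicate 1 the median was -0.033 in the oocyte list and 0.23 in the 2-cell list, and without control replicate 1 the 2-cell median was 0.34. The 2-cell median was 1.21 with a pseudocount of 0.1 and 1.25 with limma-voom. Of 18 cumulus and granulosa cell markers, 1 passed the filter. The 18 summed to 9.91 and 9.01 FPKM in Yy1 knockdown and to 6.46 and 5.95 FPKM in control libraries, most of it Amhr2. Fshr, Inha and Lhcgr were among the 6 listed at 0 in every library. The cumulus gene past the filter was higher without overlap (log2 fold change 0.50, limma adjusted p = 0.541). Of 15 sperm markers, 1 passed the filter, with overlapping groups (log2 fold change 0.08). The 15 summed to 3.79 and 6.98 FPKM in Yy1 knockdown and to 4.29 and 5.96 FPKM in control libraries. Prm1 and Tnp1 were among the 9 listed at 0 in every library. Of 10 blood markers, 1 passed the filter. The 10 summed to 3.74 and 4.79 FPKM in Yy1 knockdown and to 2.86 and 1.75 FPKM in control libraries. Hbb-bs and Hbb-bt were among the 4 listed at 0 in every library. The blood gene past the filter was higher without overlap (log2 fold change 0.69, limma adjusted p = 0.546), as were 21.8% of all tested genes.

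Genes beside the pluripotency factors on the chromosome were read from RefSeq positions. Nanog lies in a cluster of embryo genes, with Gdf3 97402 bases, Dppa3 77218 bases and the glucose transporter gene Slc2a3 13176 bases away. Within that cluster Gdf3 was lower without overlap (log2 fold change -0.73, limma adjusted p = 0.548), and the pseudogene Gm10420 was higher without overlap, at 84.7 and 92.5 FPKM in Yy1 knockdown and at 79.8 and 77.8 FPKM in control libraries (0.17, limma adjusted p = 0.730). Dppa3 had a log2 fold change of 0.04. Slc2a3 stood at 4.49 and 3.18 FPKM in Yy1 knockdown and at 3.65 and 4.25 FPKM in control libraries, and the groups of both genes overlapped. A few neighbours of other factors were also without overlap. Zfp511 near Utf1 (-0.60) and Atp9a near Sall4 (-0.41) were lower, and H2-Q10 (0.69) and Cdsn (0.04) near Pou5f1 were higher. In every other tested neighbour within 100000 bases of a factor the groups overlapped, and these were most of the neighbours tested. Over all tested genes 18.9% were lower and 21.8% higher without overlap, 40.7% in either direction. Tbx3os1, which overlaps Tbx3, stood at 0.306 and 0.345 FPKM in Yy1 knockdown and at 0.367 and 0.221 FPKM in control libraries, and Gm14261, which overlaps Sall4, at 0.472 and 0.788 FPKM and at 0.854 and 0.468 FPKM in the same order. Tbx3os2, 364 bases from Tbx3, stood at 0.131 and 0.812 FPKM in Yy1 knockdown and at 0 and 0.142 FPKM in control libraries. Of 7 Pou5f1-related copies in RefSeq, 2 have a row in the table, and both were listed at 0 in every library.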

How the data were processed

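The authors' table holds FPKM values, deposited with 1 column per library for 49585 rows. Per the labels' protocols, a stranded SMART-Seq kit was used on total RNA. Per the submitters' processing notes the build is mm10 and the tools include HISAT2 2.2.1 and featureCounts, with Trim Galore 0.6.7 and R 4.0.3; which annotation and strand setting were used, and how multimapping reads were treated, is not given in these sources. Genes that overlap or have copies are therefore uncertain.

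Groups and replicate numbers come from the titles. Library totals and fragments were recovered from the steps between FPKM values, with the lengths of 241 short RNA genes fixing the scale, and 12119 of the 12120 tested rows gave whole counts within 0.01 fragments. A recovered count can be too low by a common factor. PCR copies are not independent molecules, so counting intervals cover counting error only.

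All rows whose 4 libraries averaged 1 FPKM or more were tested on log2(FPKM + 1) with limma 3.58.1 in R 4.3.3 (group alone, moderated with a mean-variance trend, two-sided, Benjamini-Hochberg adjustment, threshold 0.05). A fold change on this scale understates that of low genes. The fit and the recovery were tested on simulated data. The 10 genes and the 16 other gene lists were chosen with earlier results of these data known. Named genes are the 10, Yy1, up to 4 genes per list by smallest unadjusted p and genes that overlap or copy one of the 10. Sox13, Sox15, Sox21, Nr5a1, Ubp1, Stat3, Lifr, Il6st, Rest, Ncoa3, Otx2 and Fgf5 fall outside this rule and were named after their values were seen. The same holds for the neighbours Dppa3, Slc2a3, Gm10420, Zfp511, Atp9a, H2-Q10 and Cdsn and for the markers listed at 0. Positions, biotypes and promoters come from RefSeq (GRCm38.p6). Alternatives were another pseudocount (0.1), filters of 0 and 5 FPKM, median-ratio scaling, quantile normalization, other moderation, a replicate block, protein-coding rows alone, limma-voom on recovered fragments and leaving out each library.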

Additional observations from a re-analysis of the deposited data

How the results depend on the processing

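Of the 14 alternatives, those that kept all 4 libraries gave 0 limma calls among the pluripotency factors. The fit reported did not call Yy1 either, 10.7-fold lower by group mean (limma adjusted p = 0.0556). With 2 libraries per group, 0 calls thus do not show that a factor was unchanged. The count of genes called, 0 in the fit reported, was 4 with a filter of 5 FPKM, 1 with robust eBayes, 14 among 8216 protein-coding rows and 13 with limma-voom. Fewer rows were tested with the filter of 5 FPKM and with the protein-coding rows. The cause of the differences between these counts was not tested. Tfcp2l1 was lower in all 14 (log2 fold change -0.74 to -0.32), with an unadjusted p under 0.05 in 9. Pou5f1, Nr5a2 and Tbx3 were also lower in all 14, with ranges without a library of -0.22 to -0.086, -0.33 to -0.058 and -0.46 to -0.14. The direction of Nanog, Esrrb, Sall4 and Utf1 depended on 1 library: without a library their log2 fold changes ranged from -0.27 to 0.24, from -0.24 to 0.089, from -0.10 to 0.15 and from -0.054 to 0.43. Sall4 was also -0.013 with quantile normalization. Fits without a library have 1 library in a group, which is assumed to vary like the other group. The labels do not say that a replicate number marks a shared collection, and the replicates were not treated as pairs: the deviations of same-numbered libraries correlated at 0.0994 across 12120 genes, and the fit with a replicate block called 0 genes. Of 222 list medians under the alternatives, 211 were counted as not moved, set against the spread within the list. The cumulus, sperm and blood lists held 1 tested gene each in the fit reported and so no such spread, which leaves the count uncertain for them. The sign changed in 23 medians, among them those near 0 of the target, LIF and cleavage lists when a single library was left out. It also changed in medians further from 0. Without Yy1 knockdown replicate 1 the trophectoderm median went from 0.39 to -0.14, though counted as not moved, and the oocyte median from 0.27 to -0.033. The BMP and SMAD median went from -0.26 to 0.14 with no filter. Depth limits Sox2 and Prdm14, whose fragments number 0 to 112 per library.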
